A study of Mus musculus with 4 samples.

Results

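Early B cells that expressed the surrogate light chain of the pre-B cell receptor (pre-BCR) were examined among CD45+ cells of the mouse spinal cord. A cell was taken as a B cell when its reads of Cd79a and Cd79b, the signalling subunits of the B cell receptor, added up to at least 500 CPM (reads of a gene scaled to 1000000 reads of the cell) and Csf1r, a receptor of microglia and macrophages, stayed under 500 CPM. A B cell was taken as pre-BCR-expressing when Igll1, Vpreb1 and Vpreb2 added up to at least 1000 CPM. The name stands for this rule alone. Not every chosen cell had both Igll1 and a Vpreb gene, and pre-BCR protein was not measured. This gave 81 cells out of 591 B cells and 1825 cells in all. The cells were thus chosen by the measured levels of these 6 genes, which are given only as a description.

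The cells came from adult female Swiss Webster mice, either uninjured and untreated or given a moderate contusion at thoracic level T9 and left for 7 or 60 days (7 dpi, 60 dpi). For each condition the cords of 6 mice were pooled, without perfusion and with the meninges removed, and CD45+ cells were sorted through a gate for small cells of low granularity and processed singly in nanowells, and each condition therefore has a single library without replicates. Reads, not molecules, were counted per gene. No test between groups was possible, every 95% interval (exact Clopper-Pearson for a share of cells, exact Poisson for CPM) covers counting error only, and "2-fold" below describes these libraries.

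During B cell development in the bone marrow, a pro-B cell first rearranges its immunoglobulin heavy chain genes with the RAG recombinase, while terminal transferase, the product of Dntt, adds bases at the joints. A successful heavy chain then pairs with the surrogate light chain, made of the λ5 protein (Igll1) and VpreB (Vpreb1, Vpreb2), and the resulting pre-BCR drives a burst of division. The surrogate light chain genes are then switched off, a κ or λ light chain is rearranged, and the cell becomes an immature and later a mature B cell with MHC class II and CD20 on its surface.

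All 3 genes of the rule lie on mouse chromosome 16 (GRCm38, GENCODE vM21). Igll1 spans chr16:16860671-16863985 and Vpreb1 chr16:16868403-16870843, both on the minus strand, and Vpreb2 lies at chr16:17980428-17981273 on the plus strand. The sequences just before Igll1 and Vpreb2 are shown because the results turn on whether both kinds of chain were found in the same cell. They come from RefSeq promoter windows of GRCm38.p6 and are written 5′ to 3′ on the strand of the gene. Igll1 is shown over the whole window of 250 bases, and Vpreb2 only over the 113 bases before its GENCODE start. Capitals mark E-boxes (CAGCTG or CAGGTG, the kind bound by the E2A factor) and the core CCCNNGGG bound by the EBF1 factor, both searched on both strands (CACCTG is CAGGTG read on the other strand), and no matches overlap.
Igll1, chr16:16863986-16864235, minus strand: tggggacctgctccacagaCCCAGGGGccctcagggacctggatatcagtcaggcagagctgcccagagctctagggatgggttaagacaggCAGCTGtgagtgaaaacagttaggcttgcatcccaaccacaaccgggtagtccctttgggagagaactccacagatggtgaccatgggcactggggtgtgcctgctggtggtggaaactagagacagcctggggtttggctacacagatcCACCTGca
Vpreb2, chr16:17980315-17980427, plus strand: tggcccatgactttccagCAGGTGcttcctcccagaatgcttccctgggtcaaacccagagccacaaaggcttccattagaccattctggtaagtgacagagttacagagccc

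In the 250 bases before the RefSeq start, Igll1 held 1 CAGCTG, 1 CAGGTG and 1 CCCNNGGG, Vpreb2 held 1 CAGCTG and 1 CAGGTG, and Vpreb1 held 1 CAGGTG. The CAGCTG of Vpreb2 begins 60 bases before its RefSeq start and is not in the stretch printed. Of 32536 such windows of all genes, 13.1% held CAGCTG, 17.3% held CAGGTG and 11.9% held CCCNNGGG. A match of letters is a description of the window and not a binding site. The windows of Vpreb1 and Vpreb2 shared an unbroken run of 91 bases, which includes their CAGGTG. The longest annotated transcripts of Vpreb1 and Vpreb2 were identical at 671 of 686 aligned bases (97.8%). Reads could therefore be split between Vpreb1 and Vpreb2, and the text treats them as 1 kind of chain and gives their sum.

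Some facts of the libraries bear on the values. The libraries held between 306721154 and 382779731 reads, and the median cell had 554836, 663734 and 287134 reads in uninjured cord, at 7 dpi and at 60 dpi. The labels name female mice. After each cell was thinned to 50000 reads, reads of Xist, which is expressed from the inactive X chromosome, were seen in 270 of the 419 cells of uninjured cord, in none of 452 from 7 dpi and in 439 of 918 from 60 dpi. Reads of Y-linked genes were seen in 0, 193 and 64. The 7 dpi library thus goes against its label, and the 60 dpi library holds both Xist and Y-linked reads. Whether these fell in separate cells at 60 dpi was not examined. Every count is given by library, and without cells with any Y-linked read the rule chose 68 of 446 B cells at 60 dpi (15.2%) and 1 of 7 at 7 dpi. Cell barcodes were shared between libraries in 205 cases. Of the 81 pre-BCR-expressing cells 12 carried a shared barcode, and the expression of cells with the same barcode correlated at 0.508 or less. At 60 dpi, RNA of abundant genes was found in cells that should lack it: Igkc, the κ light chain, had at least 5 of 50000 reads in 90.3% of the 93 cells with Csf1r at 500 CPM or more and little Cd79. The share of these Csf1r-high cells is given beside the shares of B cells for that reason.

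Pre-BCR-expressing B cells were found in both injured libraries and not in the uninjured one. There, 1 cell had 18562 CPM of the 3 genes but only 279 CPM of Cd79a and Cd79b, under the B cell limit. None of the 25 B cells of uninjured cord passed, which by the limit of 3 counts allows a share of up to 12% of B cells and 0.704% of cells. At 7 dpi, 6 of 42 B cells passed (14.3%, interval 5.43 to 28.5%), and at 60 dpi 75 of 524 (14.3%, 11.4 to 17.6%). The shares of B cells at 7 and 60 dpi were thus close, with intervals that overlap. The 0 of 25 in uninjured cord was too few cells to set apart from them. Its upper bound by the Clopper-Pearson interval, 13.7%, was under both shares but above their lower bounds of 5.43 and 11.4%. As a share of all sorted cells the pre-BCR-expressing cells made up 1.32% at 7 dpi (0.487 to 2.85%) and 7.94% at 60 dpi (6.29 to 9.85%). The latter difference went with the share of B cells, which was 5.87% of cells in uninjured cord, 9.25% at 7 dpi and 55.4% at 60 dpi. Of the 93 Csf1r-high cells at 60 dpi, 4.30% had at least 1000 CPM of Igll1 and 4.30% of Vpreb1 plus Vpreb2. At 7 dpi the highest of 262 Csf1r-high cells had 3327 CPM of the 3 genes. How much of the shares of B cells rests on RNA from other cells was not tested.

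**Figure D1:**
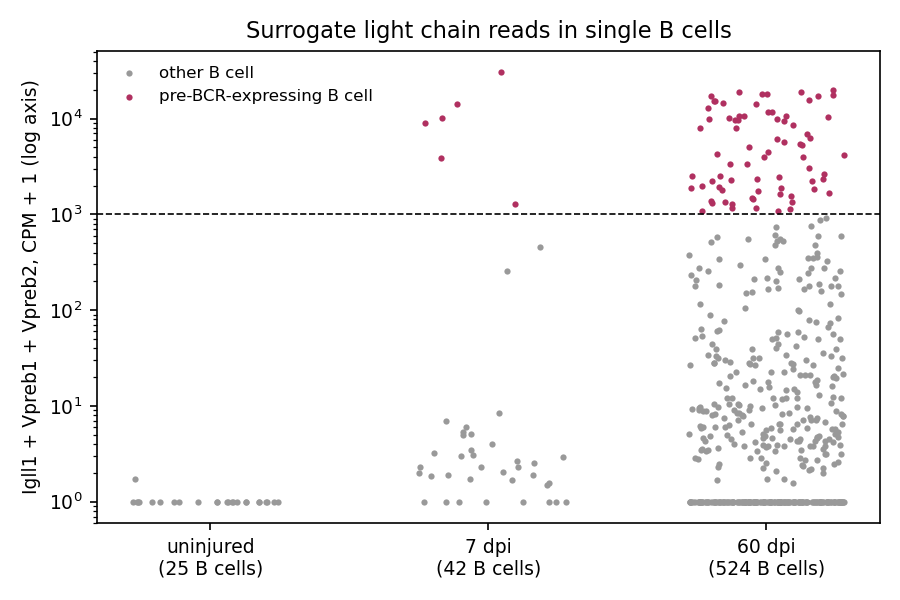
Each point is 1 B cell, and the vertical axis gives the summed CPM of Igll1, Vpreb1 and Vpreb2 plus 1 on a log scale, by library. The dashed line is the limit of 1000 CPM, and 0, 6 and 75 cells lie above it in the uninjured, 7 dpi and 60 dpi libraries.

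The summed level of the 3 genes covered more than a factor of 10 among the chosen cells. At 60 dpi its median was 4309 CPM, the middle 50% of cells lay between 1875 and 10453 CPM, and the highest cell had 19769 CPM. The 6 cells at 7 dpi had a median of 9591 CPM and a highest value of 30549 CPM. The other B cells had a median of 3.17 CPM at 60 dpi, and 182 of the 449 had under 1 CPM. Just outside the limit stood cells at 615, 735, 760, 877 and 920 CPM, and just inside at 1087, 1092, 1130, 1157 and 1171 CPM. All 10 of these were 60 dpi cells without a read of Dntt. The 75 cells held 82.6% of all reads of the 3 genes in the 60 dpi library.

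Both kinds of chain were usually present together. At 60 dpi, 51 of 75 cells had at least 100 CPM of Igll1 and of Vpreb1 plus Vpreb2, 13 had Igll1 alone and 11 had Vpreb1 or Vpreb2 alone. All 6 cells at 7 dpi had both. Vpreb2 was at 100 CPM or more in 52 of the 81 cells, always with Vpreb1 at 100 CPM or more. Of the reads of the 3 genes at 60 dpi, 51.7% fell on Igll1, 41.5% on Vpreb1 and 6.80% on Vpreb2, and at 7 dpi 44.0%, 40.1% and 15.9%. In the plot of the chains, the cells with 1 kind lie along its left and lower sides and the larger number with both kinds at the upper right.

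**Figure D2:**
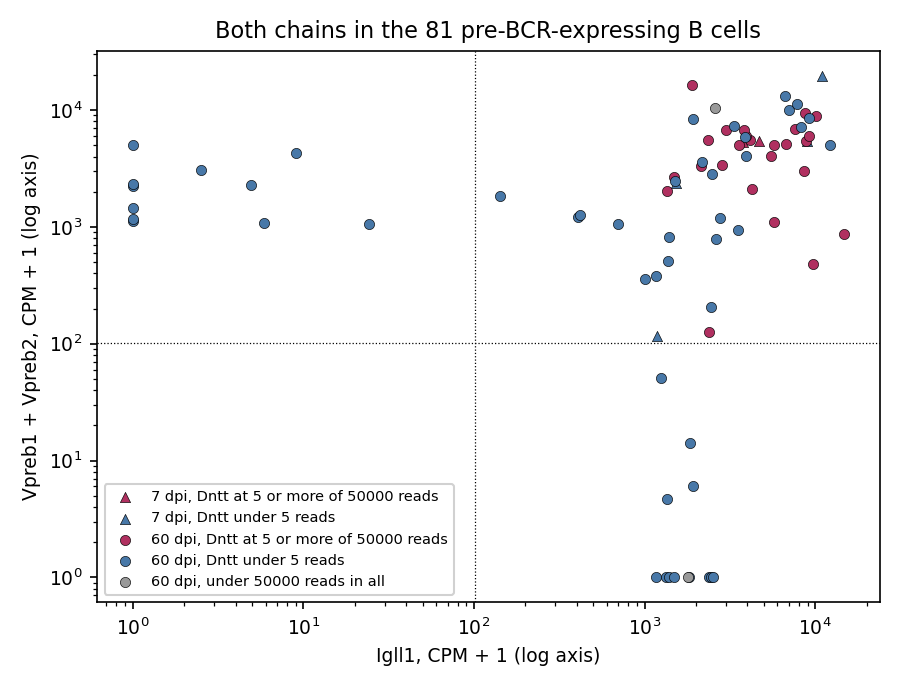
Each point is 1 of the 81 pre-BCR-expressing cells, with the CPM plus 1 of Igll1 on the horizontal and of Vpreb1 plus Vpreb2 on the vertical log axis, triangles for 7 dpi and circles for 60 dpi. Dotted lines mark 100 CPM; every cell with Dntt at 5 or more of 50000 reads (red) lies where both kinds of chain were above it, and 2 cells under 50000 reads are grey.

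The cells with both kinds of chain differed from those with 1 kind in genes that the rule did not use. This split was chosen after the values were seen, and it is described here at 60 dpi as shares of cells with at least 5 of 50000 thinned reads, over 50 cells with both kinds, 23 with 1 kind, 438 other B cells and the 93 Csf1r-high cells. Dntt (chr19:41029275-41059525, plus strand), the terminal transferase gene, reached this level in 25 of 50 cells with both kinds (50%, 35.5 to 64.5%) and in 0 of 23 with 1 kind, which allows a share of up to 13.0%. It did so in 5 other B cells (1.14%) and in 3.23% of Csf1r-high cells. Among the cells with both kinds, single cells ran from 0 to 3911 CPM with a median of 38.8 CPM, and 24 of the 51 had no read.

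Lef1 (chr3:131110471-131224356, plus strand), a transcription factor of Wnt signalling that is active in early B cells, was at this level in 64.0% of cells with both kinds (49.2 to 77.1%), 13.0% with 1 kind (2.78 to 33.6%), 6.85% of other B cells and 3.23% of Csf1r-high cells. Tspan13, a tetraspanin, was there in 84.0%, 39.1%, 43.4% and 23.7%. Mzb1, a chaperone for immunoglobulin assembly in the endoplasmic reticulum, was there in 64.0%, 17.4%, 25.8% and 7.53%. For these genes the cells with 1 kind stood close to the other B cells, with overlapping intervals. Vpreb3 is related to Vpreb1 but is made also later in B cell development. It reached this level in 90.0% of cells with both kinds, 82.6% with 1 kind, 59.8% of other B cells and 14.0% of Csf1r-high cells. Rag1 (chr2:101638282-101649501, minus strand) did so in 34.0%, 26.1%, 12.1% and 3.23%. For Rag1 the interval with 1 kind, 10.2 to 48.4%, overlapped those with both kinds (21.2 to 48.8%) and of other B cells (9.20 to 15.5%). For Vpreb3 it also overlapped both, with a lower bound of 61.2% against an upper bound of 64.4% in other B cells. The shares of Rag1 and Vpreb3 thus do not set the cells with 1 kind apart from either group.

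The light chain genes went the other way. Igkc had a median of 831 CPM in the 51 cells with both kinds, 3399 CPM in the 24 with 1 kind, 4785 CPM in other B cells and 974 CPM in Csf1r-high cells. At least 1000 CPM of Igkc was found in 41.2% of cells with both kinds, 87.5% with 1 kind and 88.9% of other B cells. Thus the κ level of the cells with both kinds lay near that of cells which should not express it. Iglc2, a λ constant region, summed to 151 CPM in cells with both kinds, 1240 CPM with 1 kind and 1433 CPM in other B cells, with 246 CPM in Csf1r-high cells. Ighm, the μ heavy chain that pairs with the surrogate light chain, was also at a lower level in the cells with both kinds, with 1599 CPM (median cell 1174 CPM) against 4468 CPM (3632 CPM) with 1 kind, 2692 CPM (2363 CPM) in other B cells and 475 CPM in Csf1r-high cells. It was nonetheless found at 5 of 50000 reads in 94.0% and 95.7% of the subsets and in 91.6% of other B cells, shares too near the top to compare.

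The cells with both kinds also had more of the surrogate light chain and more reads. Their median sum of the 3 genes was 9545 CPM, against 1811 CPM with 1 kind, and their median depth was 439406 against 277930 reads. Among cells between 1000 and 3000 CPM of the sum, Dntt reached 5 of 50000 reads in 1 of 10 cells with both kinds and 0 of 20 with 1 kind. From 3000 CPM upwards it did so in 24 of 40 and in 0 of 3. Igkc had a median of 2147 against 3904 CPM in the lower range and of 664 against 3380 CPM in the upper. With 10 and 3 cells in the smaller groups, the number of chains and the amount of surrogate light chain cannot be told apart. Summed microglia markers had medians of 1733 and 1524 CPM in the cells with both kinds and with 1 kind.

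**Figure D3:**
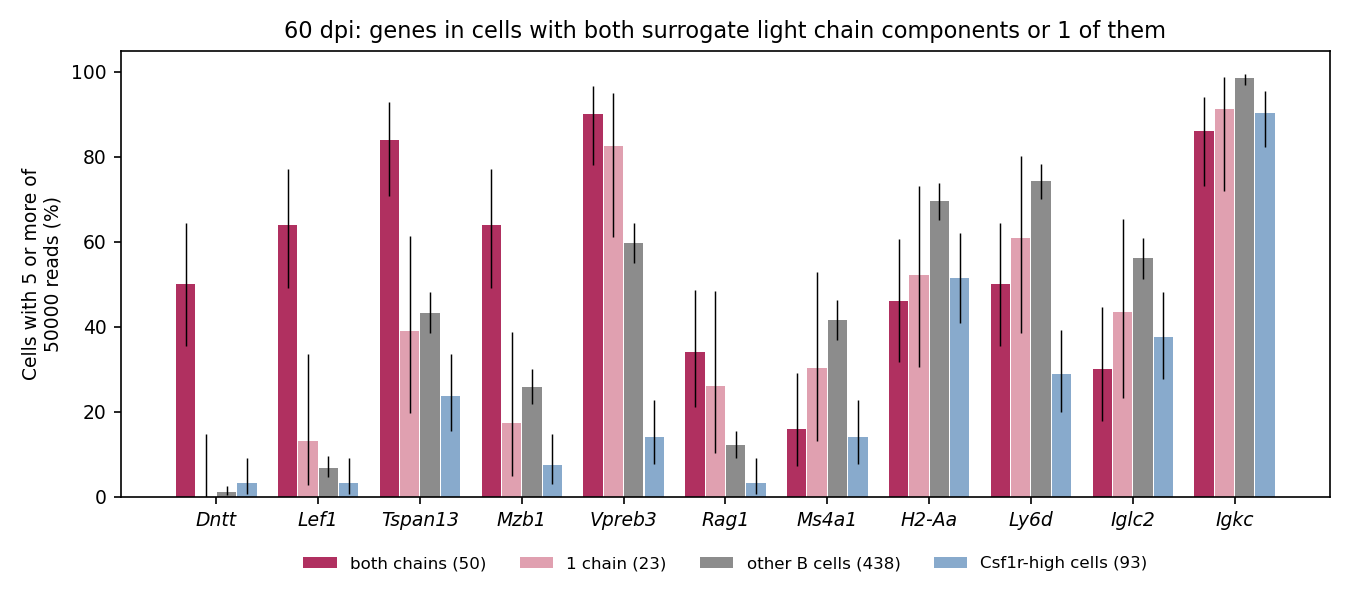
Bars give the percent of 60 dpi cells with at least 5 of 50000 thinned reads of each gene in cells with both kinds of chain, with 1 kind, in other B cells and in Csf1r-high cells (number of cells in the key), and lines are 95% Clopper-Pearson intervals. Dntt was found in 50% of cells with both kinds and 0 of 23 with 1 kind, while the bars of Igkc are high in all 4, Csf1r-high cells included.

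Across all genes, the 75 pre-BCR-expressing cells at 60 dpi were compared with the 449 other B cells of the same library by summed counts, as log2 ratios of CPM plus 1. The 75 include the 24 cells with 1 kind of chain. Genes entered if they reached 50 CPM in 1 group and were detected in 25% or more of that group's cells. A gene could enter through the group where it was high, so counts by direction depend in part on this filter. Of 2792 genes, 186 were at least 2-fold higher (6.66%) and 232 at least 2-fold lower (8.31%), and the median log2 ratio was 0.13. Of these, 94 (3.37%) and 140 (5.01%) were past 2-fold also by the mean of single-cell CPM and without the cell that held most reads of the gene. The 3 genes of the rule are among the higher ones. The pre-BCR-expressing cells were deeper, with a median of 407169 against 280130 reads, and at 50000 reads each they had a median of 1775 against 1529 genes.

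Of 12 genes of V(D)J recombination, 5 passed the filter on low values. Of these, 3 were at least 2-fold higher and none 2-fold lower, with a median log2 ratio of 1.12. Dntt and Rag1 passed only through the pre-BCR-expressing cells, where they were high, so this count and median depend on the filter. The whole list of 12 summed to 3289 against 1378 CPM. Dntt had 361 CPM (interval 356 to 367, for the counting of reads and not the spread over cells) against 9.50 CPM, a log2 ratio of 5.11. Of the 75 cells, 46 had no read of Dntt. Rag1, the catalytic subunit of the recombinase, had 365 against 95.9 CPM (1.92). Hmgb2, a DNA-bending protein and partner of the recombinase that is also abundant in dividing cells, had 1581 against 725 CPM (1.12). By the mean of single-cell CPM Hmgb2 stood at 0.92, so this gene is near the limit. Rag2 (chr2:101624718-101632529, plus strand), the second subunit, did not pass the filter: it had 39.4 CPM, and 43.3% of its reads came from 1 cell.

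Of 26 transcription factors of the B lineage, 21 passed the filter, 3 were 2-fold higher and 6 lower. Lef1 (297 against 33.6 CPM, log2 ratio 3.10), Id3, an inhibitor of E proteins (284 against 111 CPM, 1.34), and Myb, a factor of progenitor cells (211 against 94.9 CPM, 1.15), were higher. Mef2c, Ikzf3, Spib, Bach2, Irf4 and Klf2 were lower, by log2 ratios between -1.44 (Mef2c) and -1.03 (Klf2). Of the 6 only Ikzf3 was past 2-fold also by the mean of single-cell CPM (-1.11), by which Mef2c stood at -0.73, Klf2 at -0.74, Irf4 at -0.73 and Spib at -0.48. With B cells taken at 1000 CPM Ikzf3 was within 2-fold too, at -0.88. Ikzf3 (Aiolos) and Irf4 act from the pre-B stage onwards. Bach2 stood at 0.18 by this mean, so its direction is not settled. Myb was within 2-fold by it, at 0.51. Ebf1 (0.11) and Tcf3 (0.16), which set up the B lineage, and Pax5 (-0.99), which maintains it, were within 2-fold. Erg, a factor of progenitor cells, missed the filter with 49.0 against 5.64 CPM.

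Of 17 early surface proteins and growth receptors, 9 passed, with 2 higher and 3 lower. Tspan13 had 1057 against 381 CPM (1.47) and Bst1, the pre-B surface enzyme BP-3, had 78.5 against 22.0 CPM (1.79). Cd2 (14.6 against 125 CPM, -3.01), Cd38 (35.7 against 124 CPM, -1.77) and Cd9 (61.5 against 174 CPM, -1.48) were lower, and Cd9 had 526 CPM in Csf1r-high cells. Cd93 (-0.26) and Cd24a (-0.02), which mark immature B cells, were within 2-fold. Il7r, the receptor for the main growth factor of mouse pro-B and pre-B cells, had 279 against 191 CPM (0.55) and was at 5 of 50000 reads in 17 of 73 cells (23.3%), 15.5% of other B cells and 9.68% of Csf1r-high cells. Kit, a growth receptor of the earliest B progenitors, missed the filter, with 21.2 CPM and 5 reads in 2 of 73 cells.

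Of 20 genes of pre-BCR and B cell receptor signalling, 14 passed, none was 2-fold higher and 4 were lower. The list includes Cd79a and Cd79b, which the rule used. Blnk, the adaptor downstream of the pre-BCR, was within 2-fold at 471 against 285 CPM (0.73), as was Syk (0.02). The 4 lower genes were Ptprc, which encodes CD45 (151 against 392 CPM, -1.37), Vav1 (-1.34), Cd22, an inhibitory receptor (-1.25), and Lyn, a kinase that acts with it (-1.08). By the mean of single-cell CPM only Ptprc was past 2-fold (-1.16, and -0.86 without cells with microglia markers), with Vav1 at -0.47, Cd22 at -0.99 and Lyn just within the limit. Ptprc and Lyn were higher in Csf1r-high cells, at 562 and 151 CPM. Of 16 genes of the IL-7 receptor pathway and survival, 4 passed. Socs2, an inhibitor of cytokine signalling, was higher (69.4 against 12.8 CPM, 2.35) and Jak1 lower (99.2 against 297 CPM, -1.57), though within 2-fold by the mean of single-cell CPM (-0.65).

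Of 23 genes of mature B cells 12 passed, of which 5 were 2-fold lower, 6 within 2-fold and 1 higher, with a median log2 ratio of -0.61. Ms4a1, which encodes CD20, had 153 against 808 CPM (-2.39), and at 5 of 50000 reads it was found in 20.5% of pre-BCR-expressing cells, 41.6% of other B cells and 14.0% of Csf1r-high cells. Fcrl1, an Fc receptor-like protein (-4.61), Faim3, the IgM Fc receptor also named Fcmr (-2.98), Ccr7, a receptor for homing to lymphoid tissue (-2.15), and Cd83 (-1.14, or -0.95 by the mean of single-cell CPM) were the other lower genes. Cd180 was higher (68.9 against 25.1 CPM, 1.42) but at 5 of 50000 reads was in 5.48% and 5.25% of cells.

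MHC class II showed the lowest median of the B cell lists, -1.76 over 9 of 10 genes that passed, with 6 at least 2-fold lower and none higher. H2-Eb1 had 87.6 against 539 CPM (-2.61), H2-DMa 47.6 against 230 CPM (-2.25) and H2-Ab1 706 against 2572 CPM (-1.86). Cd74, the invariant chain, was at 30.1 against 112 CPM (-1.86), H2-Aa at 493 against 1673 CPM (-1.76) and H2-DMb2 at 72.3 against 203 CPM (-1.48). Single cells spread widely: the summed CPM of the list had a median of 772 in pre-BCR-expressing cells (middle 50% 269.9 to 3171) and 2670 in other B cells (1027 to 8519). Csf1r-high cells, which can make MHC class II themselves, had a median of 1416 CPM.

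Of 9 immunoglobulin constant region genes found in the table, 5 passed and 3 were lower, none higher. Igkc (chr6:70726435-70726966, plus strand) had 2213 against 6237 CPM (-1.49), Iglc2 415 against 1433 CPM (-1.78) and Ighg2b, an IgG heavy chain, 260 against 1215 CPM (-2.22). Ighg2b rested on few cells, since without the top cell its log2 ratio was -0.35. Ighm was within 2-fold at 2294 against 2692 CPM (-0.23). Of plasma cell genes, Igj, the J chain, was lower (49.4 against 174 CPM, -1.80), Xbp1 was at -0.24, and Mzb1 had 453 against 226 CPM, just under the 2-fold limit.

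**Figure D4:**
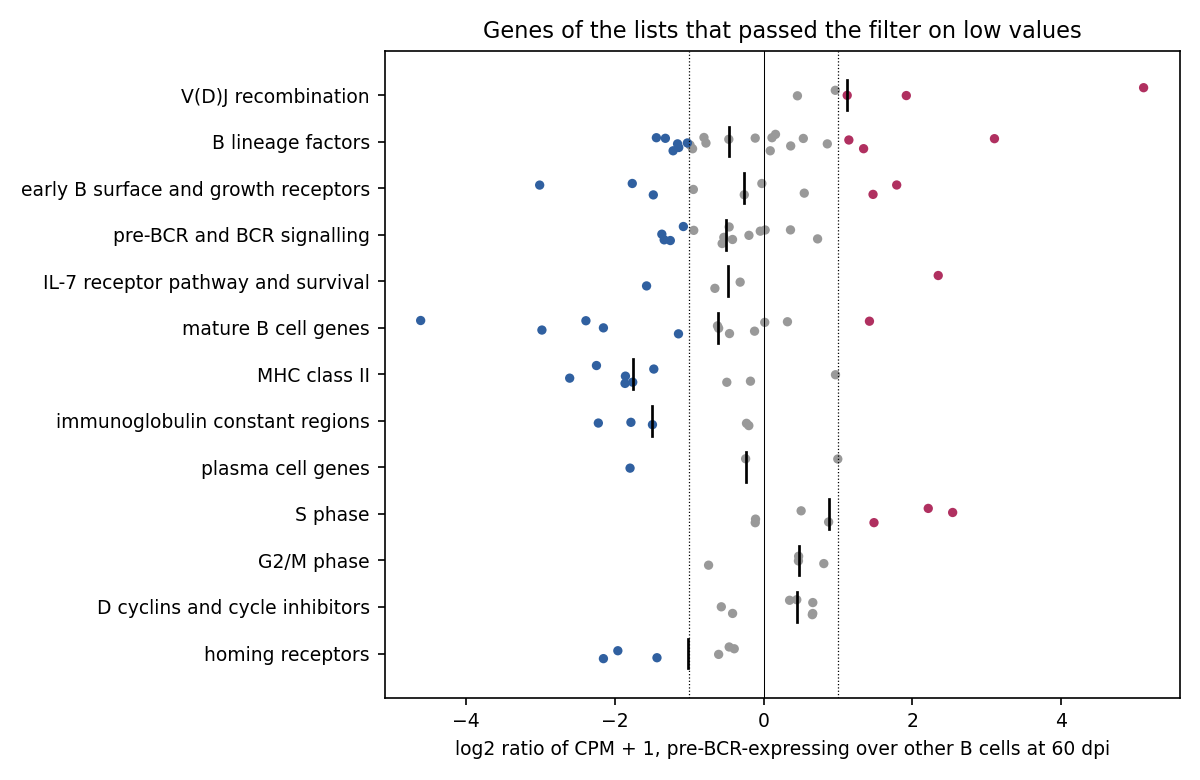
Each point is a gene of the list named on the left that passed the filter on low values, placed by its log2 ratio of CPM plus 1 in the 75 pre-BCR-expressing cells over the 449 other B cells at 60 dpi, and black bars are list medians. Dotted lines mark 2-fold. The V(D)J genes that passed lie to the right (median 1.12) and the MHC class II genes mostly to the left (median -1.76). Genes could pass through the group where they were high.

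Few division genes were past 2-fold. Of 18 S phase genes 7 passed and 3 were higher, none lower: Uhrf1 (134 against 22.2 CPM, 2.54), Dut (218 against 46.2 CPM, 2.21) and Mcm6 (163 against 57.6 CPM, 1.48). Uhrf1 had 54.6% of its reads from 1 cell, and Mcm6 40.7%, and by the mean of single-cell CPM they stood at 0.95 and 0.70. Pcna was at -0.11. None of the 4 G2/M genes that passed moved past 2-fold, and Mki67 stood at 0.81 and Top2a at -0.74. Neither direction is settled, since over the alternatives Mki67 ran from -0.92 to 1.21 and Top2a from -3.86 to 0.18. The D cyclins Ccnd2 (0.66) and Ccnd3 (0.65), which the pre-BCR and IL-7 are known to drive, were within 2-fold. Of 18 homing receptor genes 6 passed and 3 were lower, none higher: Ccr7, Itgb1 (-1.96) and Itgb2 (-1.43), the last 2 of them higher in Csf1r-high cells at 178 and 133 CPM. Cxcr4, the receptor that holds B progenitors in the bone marrow, missed the filter with 18.1 against 29.1 CPM.

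By size of change, the 10 highest genes at 60 dpi that pointed the same way at 7 dpi were Dntt, Tmem91, Gfra2, Arntl, Lef1, N4bp3, Gm6104, Uhrf1, Nup62 and Socs2, leaving out the genes of the rule. At 7 dpi only the sign was read, without the filter, which Tmem91 and Socs2 missed there. Socs2 stood at 2.85 at 7 dpi but at -2.62 without its top cell, and N4bp3 at 2.17 and 0.17. Nup62 was within 2-fold at 7 dpi, at 0.93. The other genes named stayed above 0 without their top cell. Tmem91, a membrane protein, had 139 against 6.69 CPM (4.19) and reached 5 of 50000 reads in 17.8% against 0.228% of cells. Gfra2, a receptor of the GDNF family, had 62.5 against 2.69 CPM (4.10). Arntl, a circadian clock factor, had 183 against 19.3 CPM (3.19) and was found in 23.3% against 4.11% of cells. These 3 genes were at 16.2 CPM or less in Csf1r-high cells. The 10 lowest were AI413582, Fcrl1, Apoc2, Cd2, Cd97, Gzma, Myh9, Me2, Bank1 and Tiparp, from -5.27 to -2.83. Of these, Fcrl1, Apoc2, Cd2 and Bank1 missed the filter at 7 dpi. All 10 stayed below 0 at 7 dpi without their top cell, Fcrl1 only at -0.13. Me2 (-0.62) and Tiparp (-0.66) were within 2-fold at 7 dpi. Bank1, a B cell scaffold protein, had 15.2 against 115 CPM. Apoc2, Gzma and Myh9 were higher in Csf1r-high cells, at 191, 246 and 190 CPM.

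No marker gene of another cell type that passed the filter was 2-fold higher in the pre-BCR-expressing cells. Of 12 microglia genes 9 passed, with 1 lower. The summed list had a median of 1651 CPM (85.8 to 22254) against 2505 in other B cells and 19726 in Csf1r-high cells. It includes Csf1r, which the rule kept under 500 CPM in all B cells and which defined the Csf1r-high cells. At least 3 microglia genes above 100 CPM were found in 41 of 75 pre-BCR-expressing cells and 306 of 449 other B cells. The 2 T cell, 3 NK cell and 4 erythroid genes that passed were all at least 2-fold lower, as were 2 of 5 monocyte or macrophage, 1 of 4 granulocyte and 0 of 3 myelin genes. Single other B cells reached 373530 CPM of erythroid genes and 65630 CPM of NK cell genes. Medians over cells, pre-BCR-expressing against other B cells, were 237 against 190 CPM for erythroid genes and 61.4 against 87.5 CPM for NK cell genes. Their part in the differences of other genes was not tested. No doublet caller was run, since wells were imaged for single cells.

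Single cells combined these genes in different ways. At 5 of 50000 reads, 25 of 73 cells at 60 dpi had Dntt, 23 Rag1, 17 Il7r and 11 Mki67 or Top2a, markers of dividing cells. Dntt and Rag1 were found together in 10 cells, and 38 cells had at least 1 of them. Of the 11 cells with Mki67 or Top2a, 1 had Rag1, against 22 of the 62 without (9.09% and 35.5%), and 3 had Dntt (27.3% and 35.5%). With 11 cells in the smaller group these shares are loose, and the differences were not tested. By any read of 50000, 35.6% of the 73 cells had Dntt, 43.8% Rag1, 32.9% Il7r and 28.8% Mki67 or Top2a. In 21 cells none of these markers reached the level, 10 of 50 cells with both kinds of chain and 11 of 23 with 1 kind. With reads thinned to 50000, a gene under the level cannot be called absent.

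The share of cells with 5 of 50000 reads followed the amount of surrogate light chain for some genes and not for others. Across 30, 23 and 20 cells at 1000 to 3000, 3000 to 10000 and over 10000 CPM of the 3 genes, Dntt was found in 3.33%, 52.2% and 60%, and Rag1 in 20%, 21.7% and 60%. Tspan13 was found in 40%, 82.6% and 100%, and Arntl in 3.33%, 21.7% and 55%. Lef1 and Myb were instead most frequent in the middle band, at 23.3%, 73.9% and 55% and at 23.3%, 43.5% and 30%. Over the same bands H2-Aa was in 56.7%, 52.2% and 30%, Ms4a1 in 30%, 21.7% and 5%, and Ly6d, a surface protein that marks commitment to the B lineage, in 73.3%, 47.8% and 30%. Iglc2 was in 46.7%, 30.4% and 20%. H2-Eb1 (20%, 21.7% and 20%) showed no such steps. Igkc was in 90%, 91.3% and 80%, shares too near the top to show its level. In cells with both kinds of chain, its median was 2147 CPM between 1000 and 3000 CPM of the 3 genes and 664 CPM from 3000 CPM upwards. With 1 kind the medians were 3904 and 3380 CPM, the latter over 3 cells. In other B cells below 1 CPM, Dntt was in 1.14%, Rag1 in 14.2% and H2-Aa in 71.6%.

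The 6 cells at 7 dpi were few but deep, with a median of 1794434 reads against 763845 in the 36 other B cells of the library. Igll1 had 1178, 1529, 3779, 4694, 8911 and 10899 CPM in them. Dntt was at 0 in 2 cells, at 0.441 and 68.1 CPM in 2 and at 766 and 900 CPM in the others. Only these last 2 were above 100 CPM. Igkc was at 594 CPM or less in all 6 and Ms4a1 was at 0 in all 6, while Ighm lay between 172 and 1355 CPM. In the other B cells at 7 dpi, Igkc summed to 5074 CPM and Ms4a1 to 405 CPM.

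Against the 36 other B cells at 7 dpi, 3426 genes were compared, of which 1143 were at least 2-fold higher (33.4%) and 884 lower (25.8%). With 6 cells in 1 group such shares are large, and single cells decide many of them. Dntt had 443 against 0.766 CPM, a log2 ratio of 7.97. All 6 MHC class II genes that passed were lower, with a median of -6.78. The whole list of 10 summed to 84.7 CPM in the 6 cells and 5808 CPM in the other B cells. These genes could pass almost only through the other B cells, so their direction says little by itself. Of 13 S phase genes that passed, 12 were higher, among them Dut (418 against 0.127 CPM), Mcm6 (148 against 8.83 CPM) and Pcna (609 against 242 CPM). Genes could pass through the 6 cells alone, so this count says little by itself. The whole list of 18 summed to 3127 against 658 CPM. Single cells varied, with Dut at 0, 0, 0, 238, 476 and 928 CPM. The 2 G2/M genes that passed were lower. Lef1 (2.40), Tspan13 (1.64), Myb (1.80, or 0.91 without its top cell) and Arntl (2.44) were higher, and Igkc (-5.02) and Iglc2 (-9.10) lower. Rag1 was within 2-fold at 58.4 against 54.9 CPM. Microglia genes were lower in 9 of 11, with a median sum of 1991 against 6939 CPM, and this was not tested as a part of the other differences.

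Of 130 genes that were at least 2-fold higher at 60 dpi and passed at 7 dpi, the genes of the rule left out, 100 were above 0 at 7 dpi and 78 past 2-fold. Of 179 lower genes, 145 were below 0 and 116 past 2-fold. Over all 2362 genes that passed at both times, 53.6% were above 0 at 7 dpi, 25.7% at least 2-fold higher and 24.9% lower. The cells of each comparison came from its own library.

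The 75 cells at 60 dpi were set beside the 6 at 7 dpi. Of 3373 genes, 799 were at least 2-fold higher at 60 dpi (23.7%) and 834 lower (24.7%). All 7 MHC class II genes that passed were higher at 60 dpi, with a median log2 ratio of 4.02. So were all 5 immunoglobulin constant region genes, with a median of 3.83. The whole MHC class II list summed to 1654 CPM at 60 dpi and 84.7 CPM at 7 dpi, and the constant regions to 5277 and 833 CPM. Genes could thus pass mainly through the 60 dpi cells, so these counts say little by themselves. The Csf1r-high cells moved the same way between the libraries: their immunoglobulin constant regions summed to 2233 CPM at 60 dpi and 242 CPM at 7 dpi, and their MHC class II to 3972 and 1529 CPM. Of 14 S phase genes 8 were lower at 60 dpi and none higher. Of 5 G2/M genes that passed, 4 were instead higher at 60 dpi and 1 lower. Dntt (361 and 443 CPM, -0.29), Arntl (0.13) and Myb (0.17) were at similar levels, while Rag1 (365 and 58.4 CPM, 2.62) and Lef1 (297 and 66.1 CPM, 2.15) were higher at 60 dpi. With 1 library per time, time after injury and library cannot be told apart.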

How the data were processed

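CD45+ cells of uninjured, 7 dpi and 60 dpi spinal cord were analysed, 1 library each. Cells of 3 dpi were not used here. The deposited values are counts of reads per gene and cell (39066 genes), which the authors made by splitting reads by cell barcode, mapping them to mm10 with STAR and counting them with Bioconductor packages. The submitters' processing notes also name Seurat. The annotation and strand setting are not given in the sources used here. 0 columns belonged to no library.

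Counts were summed over cells and scaled to CPM. Ratios used a pseudocount of 1 CPM. Genes were called at 2-fold, with no test. Shares of cells used cells thinned to 50000 reads, which left 73 of 75 and 6 of 6 pre-BCR-expressing cells. A count of 0 is given the limit of 3 counts. The members and gene lists were chosen with earlier results of these data known. Named genes were those of the lists and the 10 highest and 10 lowest log2 ratios at 60 dpi that pointed the same way at 7 dpi, and the text prints only part of them, since some are not reported here. Of 284 list entries 281 were found, 2 by an older symbol. The calculation was tested on simulated data. Alternatives changed the limits of the cell rule, the summary over cells, the filter, the pseudocount and the depth of thinning. Python 3.11.15, numpy 2.4.6, scipy 1.17.1, pandas 2.3.3, Biopython 1.88 and matplotlib 3.10.9 were used. Promoter windows came from RefSeq and gene positions from GENCODE vM21, both on GRCm38, the build also named mm10.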

Additional observations from a re-analysis of the deposited data

Results flagged for a closer look

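Faim3, the IgM Fc receptor, differed in direction between the times, since its log2 ratio of pre-BCR-expressing over other B cells was -2.98 at 60 dpi and 1.12 at 7 dpi. The difference was not tested, and it rests on 1 cell: at 7 dpi 1 of 6 cells reached 5 of 50000 reads, and without the cell with most reads the 7 dpi value was -5.05, the direction of 60 dpi.

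Surrogate light chain reads were also found outside the B cells compared here. At 7 dpi 20 cells and at 60 dpi 31 cells had at least 1000 CPM of Igll1, Vpreb1 and Vpreb2 without meeting the B cell limits, against 1 cell in uninjured cord. At 7 dpi, 4 of the 20 had both kinds of chain at 100 CPM, 15 had Csf1r at 500 CPM or more, and their median sum of microglia genes was 26383 CPM. At 60 dpi, 14 of the 31 had both kinds, 9 had Csf1r at 500 CPM or more, and 8 had Dntt at 100 CPM or more.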

How the results depend on the processing

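No paired analysis was possible because each condition is 1 library and no result comes from a test, and no library could be left out of a group for the same reason. The cause of the changes below was not tested, except where the alternative itself sets it. At 60 dpi, 75 cells became 53 (10.1% of B cells, 5.61% of cells) at a limit of 2000 CPM, 55 cells (5.82% of cells) where B cells needed 1000 CPM, and 34 (19.2% and 13.1%) without cells with 3 microglia markers above 100 CPM, which removes most cells: at 7 dpi it left 3 cells, 1 of them a B cell and pre-BCR-expressing (100% and 33.3%). Alternatives chosen after seeing the data asked both kinds of chain at 100 CPM (51 cells at 60 dpi, 9.73% and 5.40%), dropped the B cell rule (5.73% of cells at 7 dpi, 11.2% at 60 dpi) or left out cells with a Y-linked read (68 cells at 60 dpi). At a B cell limit of 250 CPM, 1 of 29 uninjured B cells passed.

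Counts of genes past 2-fold moved most with the filter. At 60 dpi, 186 higher and 232 lower became 431 and 442 with 50 CPM alone, 732 and 1088 with 10 CPM and 10% of cells, 51 and 46 with 200 CPM, and 345 and 349 without cells with microglia markers. Without the top cell of each gene 116 were higher, 94 and 140 passed by all summaries, and 307 were higher in the cells with both kinds of chain. At 7 dpi, 1143 higher became 602 without the top cell, 753 by all summaries, 2230 with 10 CPM and 418 with 200 CPM, and 884 lower became 2506 and 201. For 60 over 7 dpi, 799 higher became 1460 without microglia markers, 2635 with 10 CPM and 140 with 200 CPM, and 834 lower became 301 without the top cell, 1664, 272, and 391 by all summaries. With 6 cells at 7 dpi these counts are loose.

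Rag1 went from 43.8% of cells with a read to 31.5% at 5 reads, and Mki67 or Top2a from 28.8% to 15.1%. Of the 91 genes followed, 58 were past 2-fold at 60 dpi, of which 43 were so in all 3 summaries and 34 under every alternative for which single genes were computed. Of their 754 values 4 changed sign: Bach2 to 0.18 by the mean of single-cell CPM, Cd38 to 0.019 and Uhrf1 to -1.03 without cells with microglia markers, and Ighg2b to 0.015 at the B cell limit of 1000 CPM. At 7 dpi 46 were past 2-fold, 36 under every such alternative, and 1 of 460 values changed sign, Faim3, to -5.05 without the top cell. Genes within 2-fold or short of the filter changed sign more often, in 29 of 429 values (14 of 33 genes) at 60 dpi and 39 of 450 (21 of 45) at 7 dpi.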
